A study of Mus musculus with 26 samples.

Results

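The genes of major histocompatibility complex (MHC) class I and class II antigen presentation were followed in mouse microglia that differed in Tmem106b and Grn genotype. The genes were chosen by name, 5 of the class II pathway and 5 of the class I pathway, and all 10 were found among the 52636 genes of the count tables by their Ensembl identifiers. The class II genes were H2-Aa, H2-Ab1, H2-Eb1, Cd74 and Ciita. The class I genes were B2m, H2-K1, H2-D1, Tap1 and Tap2. All 10 passed the filter on low counts.

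Microglia are the resident macrophages of the brain. Progranulin, the secreted protein that Grn encodes, is taken up and sent to lysosomes, where the membrane protein Tmem106b also resides. The series combined Tmem106b and Grn genotypes, with Tmem106b KO only in Grn WT mice. It compared 7 genotypes over 26 libraries of polyadenylated RNA. These were Tmem106b KO Grn WT (n = 4), Tmem106b HET Grn KO (n = 3), Tmem106b HET Grn HET (n = 3), Tmem106b HET Grn WT (n = 4), Tmem106b WT Grn KO (n = 4), Tmem106b WT Grn HET (n = 5) and Tmem106b WT Grn WT (n = 3), where KO, HET and WT stand for knockout, heterozygous and wild type as the labels give them. The sources used here give neither the alleles, the age of the mice, the isolation of the cells nor the number of mice behind a library. Libraries also differed in sex (14 female, 12 male) and in a dissection label (18 Entire, 8 Hemi), and both were covariates of the tests unless another setting is named.

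MHC class II molecules are heterodimers of an alpha and a beta chain that show peptides from endosomes to CD4 T cells, and the invariant chain Cd74 guides them there. Ciita is the transactivator that class II promoters depend on. MHC class I molecules pair a heavy chain such as H2-K1 or H2-D1 with beta-2 microglobulin (B2m) and show cytosolic peptides to CD8 T cells, after the Tap1 and Tap2 transporter has brought the peptides into the endoplasmic reticulum. In the healthy brain microglia are known for little class II, which rises with interferon gamma.

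Promoters of both classes are known to carry a module of X and Y boxes, to which RFX, CREB and NF-Y proteins bind and to which Ciita or its class I relative Nlrc5 is recruited. The bases 250 upstream of the RefSeq transcription start (GRCm38.p6) were searched for 6 of the 10 genes. H2-Ab1, Cd74, Ciita and Tap2 were left out of the search, so whether they hold the motifs was not tested. Counts of genes with a motif refer to the 6 genes searched and not to all 10. The sequences are shown beside the levels, in which the class II genes varied together across libraries, as did H2-K1, H2-D1 and B2m. Whether the motifs have a part in this was not tested. The core of the cyclic AMP response element of the X box, TGACG, followed 5 to 30 bases downstream on the strand of the gene by ATTGG, the reverse complement of the CCAAT core of the Y box, was found in 4 of the 6 genes (H2-Aa, B2m, H2-K1 and H2-D1), which have 7 windows between them. It was found in 107 of 27025 genes with a window (0.4%), and in 113 of their 32851 windows (0.34%). The stretches from the first core to the second, with both cores in capitals and 20 or 21 bases between them, were as follows.
H2-Aa: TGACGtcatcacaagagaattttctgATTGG
B2m: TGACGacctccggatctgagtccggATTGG
H2-K1: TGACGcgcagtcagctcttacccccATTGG
H2-D1: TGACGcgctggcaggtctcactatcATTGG
They lie at chr17:34287867-34287897 (minus strand), chr2:122147609-122147638 (plus strand), chr17:34000359-34000388 (minus strand) and chr17:35262993-35263022 (plus strand).

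The wider windows of 4 genes are given with TGACG and CCAAT on either strand in capitals. In H2-Aa the TGACG cores of both strands overlap in a palindrome. H2-Eb1 held CCAAT on each strand and no TGACG. Only these exact letters were searched, so other forms of the X and Y boxes would not be found.
H2-Aa: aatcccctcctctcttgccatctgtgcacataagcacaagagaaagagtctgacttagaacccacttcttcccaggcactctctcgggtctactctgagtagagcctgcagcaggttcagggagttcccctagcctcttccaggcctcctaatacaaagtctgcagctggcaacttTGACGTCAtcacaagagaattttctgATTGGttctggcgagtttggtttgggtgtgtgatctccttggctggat
H2-Eb1: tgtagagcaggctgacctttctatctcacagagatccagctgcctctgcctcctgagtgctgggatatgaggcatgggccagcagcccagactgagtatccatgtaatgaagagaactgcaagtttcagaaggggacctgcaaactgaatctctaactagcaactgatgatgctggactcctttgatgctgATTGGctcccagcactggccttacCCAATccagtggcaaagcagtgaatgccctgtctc
B2m: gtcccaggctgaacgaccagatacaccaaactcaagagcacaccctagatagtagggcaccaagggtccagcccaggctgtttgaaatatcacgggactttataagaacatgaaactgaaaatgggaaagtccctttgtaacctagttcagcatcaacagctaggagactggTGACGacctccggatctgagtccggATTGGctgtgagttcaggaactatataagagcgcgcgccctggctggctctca
H2-K1: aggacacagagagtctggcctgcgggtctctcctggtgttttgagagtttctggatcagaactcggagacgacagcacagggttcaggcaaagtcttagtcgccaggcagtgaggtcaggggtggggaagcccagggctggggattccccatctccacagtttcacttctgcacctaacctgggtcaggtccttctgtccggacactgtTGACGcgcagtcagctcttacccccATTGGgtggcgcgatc
The windows are chr17:34287824-34288073 (minus strand), chr17:34305617-34305866 (plus strand), chr2:122147437-122147686 (plus strand) and chr17:34000348-34000597 (minus strand, the first of the H2-K1 starts in RefSeq). Searched alone on both strands, CCAAT was found in 33.85% and TGACG in 17.77% of the 32851 windows. The interferon response factor core AANNGAAA was found in 21.31% of them, and among the 6 genes in H2-Aa, B2m, H2-K1 and H2-D1. A kappa B palindrome was found in H2-K1 and H2-D1 and in 10 windows in all (0.03%).

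**Figure D1:**
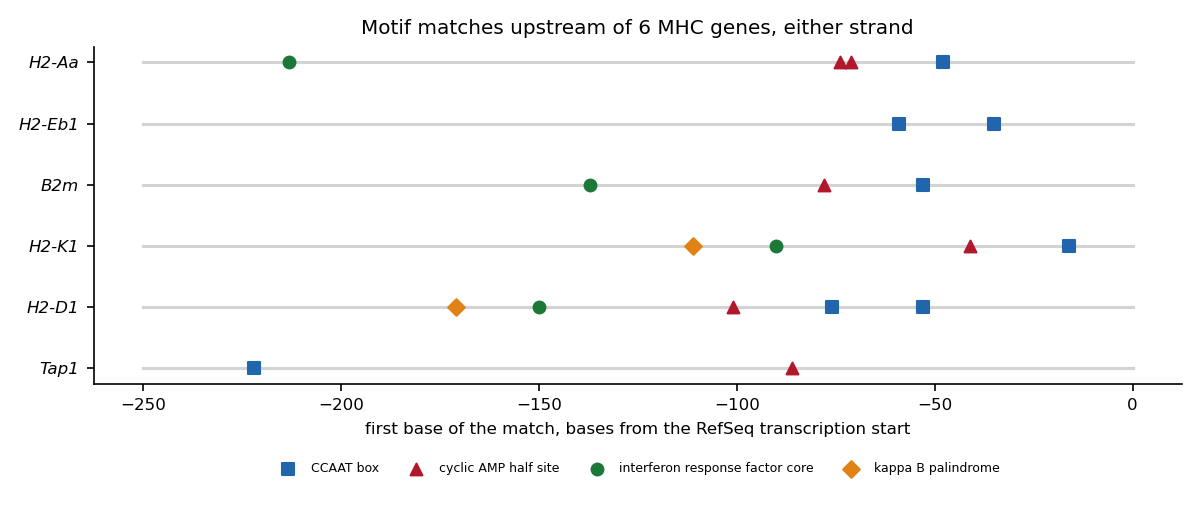
Position of each motif match in the 250 bases upstream of the RefSeq transcription start of 6 MHC genes (horizontal axis, bases from the start), on either strand. The cyclic AMP element core (triangles) stands upstream of a CCAAT box (squares) in H2-Aa, B2m, H2-K1 and H2-D1, while H2-Eb1 has no triangle and in Tap1 the CCAAT box is the farther one from the start.

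Total counts were 37.6 to 63.7 M per library (median 48.8 M). Grn had 3.23 ± 4.24 CPM (counts over the TMM-scaled library total, SD) in Tmem106b HET Grn KO and 4.84 ± 7.58 CPM in Tmem106b WT Grn KO libraries, against 2980 ± 811 CPM in Tmem106b HET Grn WT and 3345 ± 906 CPM in Tmem106b WT Grn WT libraries. Tmem106b had 28.2 ± 5.13 CPM in Tmem106b KO Grn WT libraries and 77.6 ± 10.1 CPM in Tmem106b WT Grn WT libraries. The 10 microglia markers, Csf1r and Tmem119 among them, were all counted in every group and summed to 6855 to 57730 CPM over the 26 libraries. The lowest sums were in Tmem106b KO Grn WT replicate 2 (6855 CPM) and Tmem106b HET Grn KO replicate 3 (7180 CPM), both male and Hemi, which also had the highest sums of 12 neuron markers (6908 and 6757 CPM). The calls that these 2 libraries decide are given with and without them, an alternative chosen after seeing the data. In bulk libraries, fewer cells of a type and less RNA per cell cannot be told apart.

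On the deposited RPKM scale, which is per gene length and so allows levels to be set side by side between genes, B2m had the highest median over the 26 libraries (2648 RPKM). H2-D1 had a median of 747 RPKM, Cd74 of 427, H2-K1 of 267 and H2-Ab1 of 236 RPKM. H2-Aa and H2-Eb1 had medians of 120 and 118 RPKM. The transporter genes were lower, with 47.2 RPKM for Tap2 and 21.9 RPKM for Tap1, and Ciita had 0.462 RPKM. The class II chains had at least 830 reads in every library, while their transactivator lay at 0 to 458 reads per library and at 0 in Tmem106b KO Grn WT replicate 2. Ciita overlaps Dexi on the other strand. Dexi had a median of 1816.5 reads against 143.5 for Ciita, and whether counting used strand was not given, so Ciita values may hold reads of Dexi. H2-K1 and H2-D1 have close relatives among the class I genes and may share reads with them.

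The class II chains varied several-fold between libraries of most genotypes, and the genotypes overlapped. H2-Ab1, the beta chain of I-A, had 1072, 95.5, 656 and 457 CPM in Tmem106b KO Grn WT libraries. It had 172, 354 and 230 CPM in Tmem106b HET Grn KO, 461, 115 and 366 CPM in Tmem106b HET Grn HET, and 290.5, 622.5, 337.5 and 143.5 CPM in Tmem106b HET Grn WT libraries. In Tmem106b WT libraries it had 308, 151.5, 421 and 412 CPM with Grn KO, 339, 811, 40.6, 469.5 and 359 CPM with Grn HET, and 368, 111 and 366 CPM with Grn WT. The lowest library of all was Tmem106b WT Grn HET replicate 3 and the highest Tmem106b KO Grn WT replicate 1. In the order of the group means, from 570 CPM in Tmem106b KO Grn WT to 252 CPM in Tmem106b HET Grn KO, no group lay apart from its neighbour. Over the 26 libraries the highest value was 26.4 times the lowest for H2-Ab1, 24.2 times for H2-Aa (22.9 to 555 CPM) and 31.1 times for H2-Eb1 (17.8 to 554 CPM). H2-Aa and H2-Eb1 had the same lowest and highest library as H2-Ab1. Cd74 ranged from 178 to 1877 CPM, 10.5 times.

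**Figure D2:**
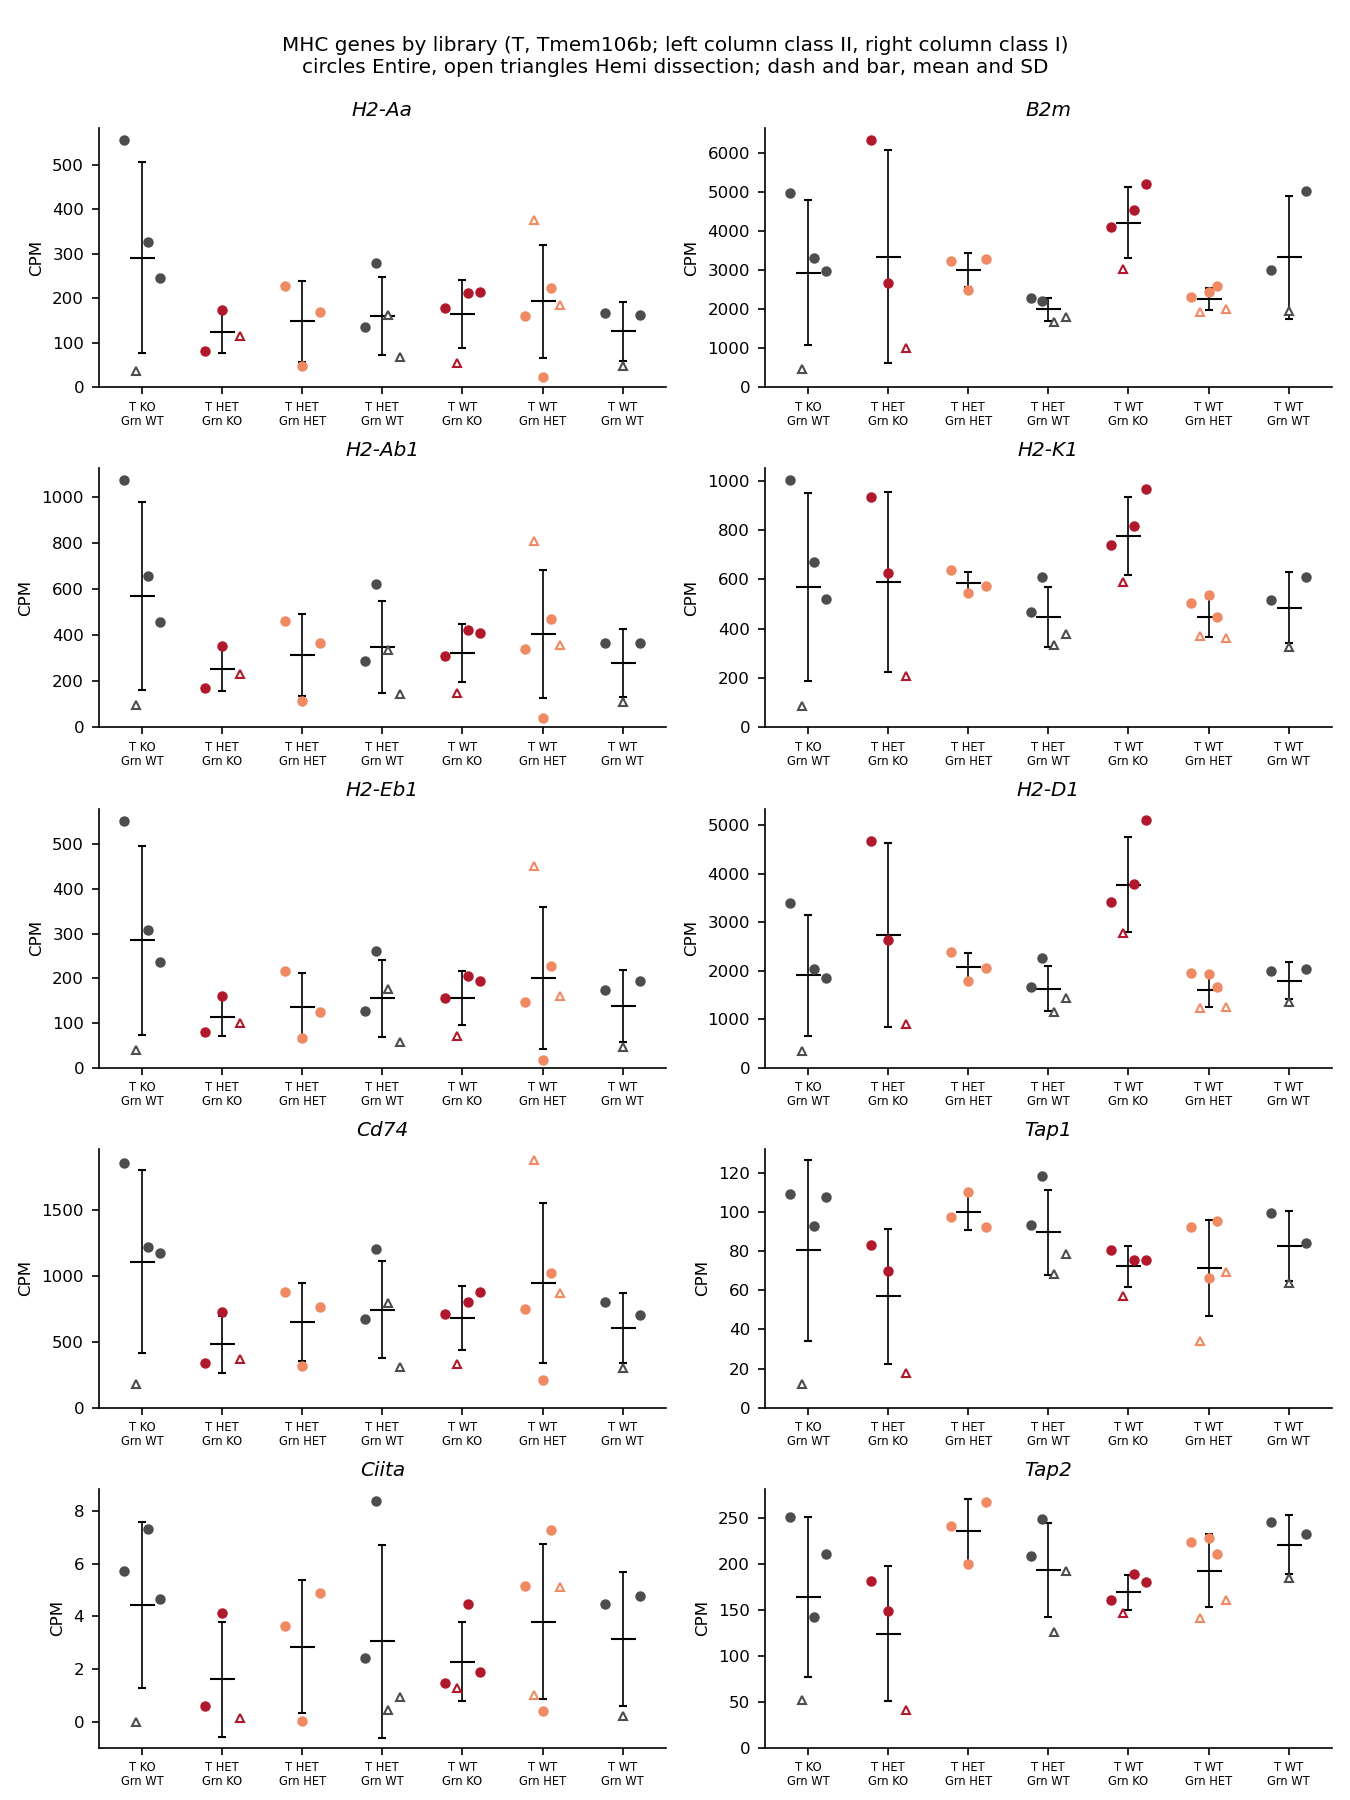
CPM (TMM-scaled, vertical axes from 0 except for Ciita, whose SD bars reach below 0) of the 10 MHC genes in each of 26 libraries by genotype (T, Tmem106b). Points are libraries, dashes and bars the mean and SD of a group. Class II genes, on the left, spread widely within most genotypes, and H2-D1, on the right, lies at 2777 to 5103 CPM in Tmem106b WT Grn KO and at 1356 to 2039 CPM in Tmem106b WT Grn WT libraries.

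The class II genes varied together from library to library. Spearman's rank correlation with H2-Ab1 over the 26 libraries was 0.967 for H2-Aa, 0.967 for H2-Eb1, 0.972 for Cd74 and 0.770 for Ciita. Taken as deviations from the group means the same values were 0.984, 0.980, 0.934 and 0.725. The class I chains formed a second set: H2-K1 had a correlation of 0.955 with H2-D1 and 0.897 with B2m, but of 0.402 with H2-Ab1. The transporter genes stood outside it: H2-K1 had 0.443 with Tap1 and 0.341 with Tap2 (−0.253 and −0.259 over the 18 Entire libraries), while Tap1 had 0.744 with Tap2. As deviations from the group means H2-K1 had 0.804 with Tap1 and 0.818 with Tap2. These correlations are descriptions, since the points share libraries, library size and cell makeup.

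**Figure D3:**
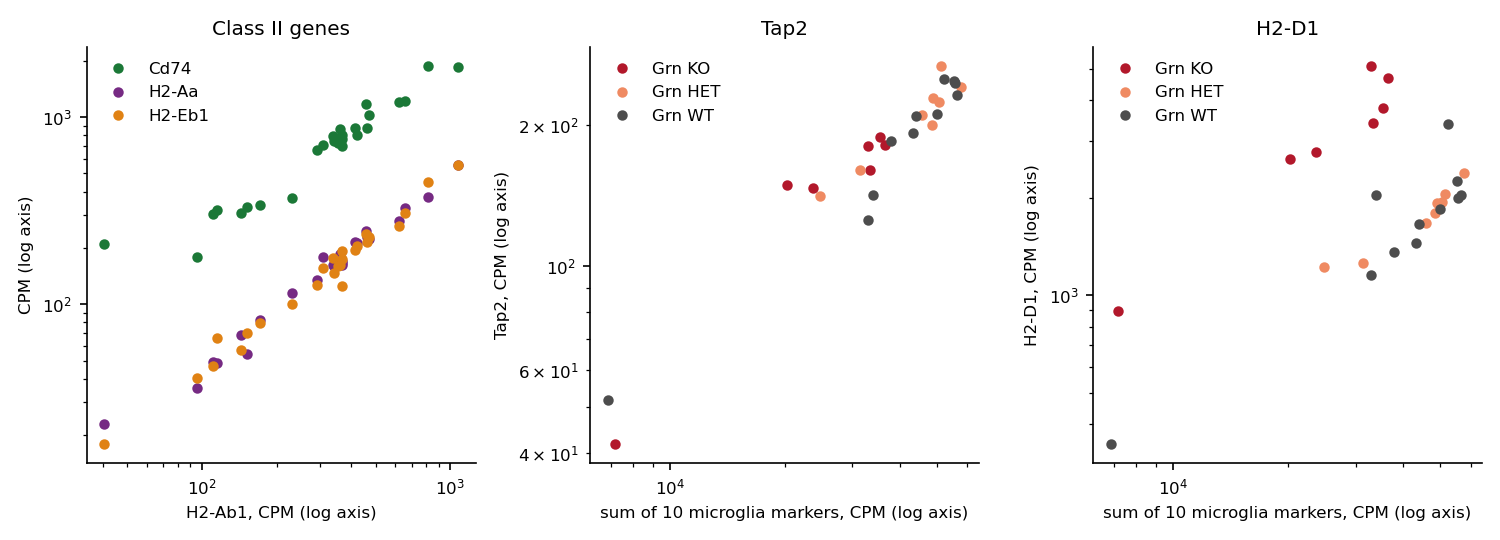
Left, CPM of Cd74, H2-Aa and H2-Eb1 against H2-Ab1 in the 26 libraries. Middle and right, CPM of Tap2 and H2-D1 against the summed CPM of 10 microglia markers, coloured by Grn genotype (all axes are log scales). Tap2 is higher where the marker sum is higher (Spearman 0.941), while in H2-D1 most Grn KO libraries lie above the others at a like marker sum (0.241 over all libraries).

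Markers of other immune cells, some of which carry class II, were low but present. Border macrophage markers (10 genes, led by Stab1, F13a1 and Ms4a7) summed to 376.5 to 1453 CPM over all libraries, dendritic cell markers (10 genes, led by Cd209a, Batf3 and Zbtb46) to 30.6 to 231 CPM, monocyte markers (8 genes, led by Ace, Ccr2 and Fn1) to 0.686 to 307 CPM, and B cell markers (8 genes, Cd79b and Cd79a among them) to 4.80 to 55.8 CPM. T and NK cell markers (11 genes, led by Nkg7, Lck and Cd3g) summed to 6.03 to 237 CPM. None of these lists was without counts in a group, but 1 monocyte marker in 3 groups, 1 B cell marker in 2 groups and 2 B cell markers in Tmem106b WT Grn WT had none. The correlation of H2-Ab1 was 0.598 with the dendritic cell sum, 0.478 with the monocyte sum, 0.473 with the T and NK cell sum, 0.458 with the B cell sum, 0.268 with the border macrophage sum and 0.312 with the microglia sum. It was 0.521 with endothelial cell and 0.466 with neutrophil marker sums. Over the 18 Entire libraries it was 0.543 with the dendritic cell, 0.645 with the monocyte, 0.298 with the T and NK cell and −0.11 with the border macrophage sum. The part of these cells in the class II levels was not tested.

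In Grn KO microglia no class II gene passed the test in either Tmem106b background, and the estimates lay on opposite sides of 0. In edgeR's quasi-likelihood test a gene passed at a Benjamini-Hochberg adjusted p under 0.05 over 21371 genes. In Tmem106b WT mice 0 of the 10 MHC genes passed for Grn KO over Grn WT (1 at an unadjusted p under 0.05). By DESeq2 0 of them passed, beside 5.65% of all genes, and by limma-voom 0, beside 0.894%. By edgeR 123 genes (0.576%) passed in all. H2-Ab1 had a log2 fold change of 0.22 (SE 0.78, adjusted p = 0.946) and Cd74 of 0.16 (SE 0.67, adjusted p = 0.956). The fold changes of H2-Aa, H2-Eb1 and Ciita were 0.44, 0.20 and 0.77 on the log2 scale, with SEs of 0.80, 0.83 and 1.54. All 5 were above 0, with a median of 0.23 beside 0.10 over all genes tested.

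In Tmem106b HET mice all 5 class II estimates were below 0 for Grn KO over Grn WT, with a median of −0.51 beside −0.02 over all genes. Here 3093 genes (14.5%) passed in either direction, and 0 of the 5 class II genes did. H2-Ab1 had a log2 fold change of −0.50 (SE 0.74, adjusted p = 0.701) and Cd74 of −0.70 (SE 0.65, adjusted p = 0.501). H2-Aa, H2-Eb1 and Ciita had log2 fold changes of −0.41, −0.51 and −1.22, with SEs of 0.76, 0.79 and 1.35. The difference between the backgrounds itself, tested as an interaction, was −0.72 for H2-Ab1 (SE 1.08, adjusted p = 0.912), within its error. With Grn WT replicate 2 left out of the Tmem106b WT groups, H2-Ab1 there turned to −0.28, H2-Eb1 to −0.41 and Cd74 to −0.17.

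**Figure D4:**
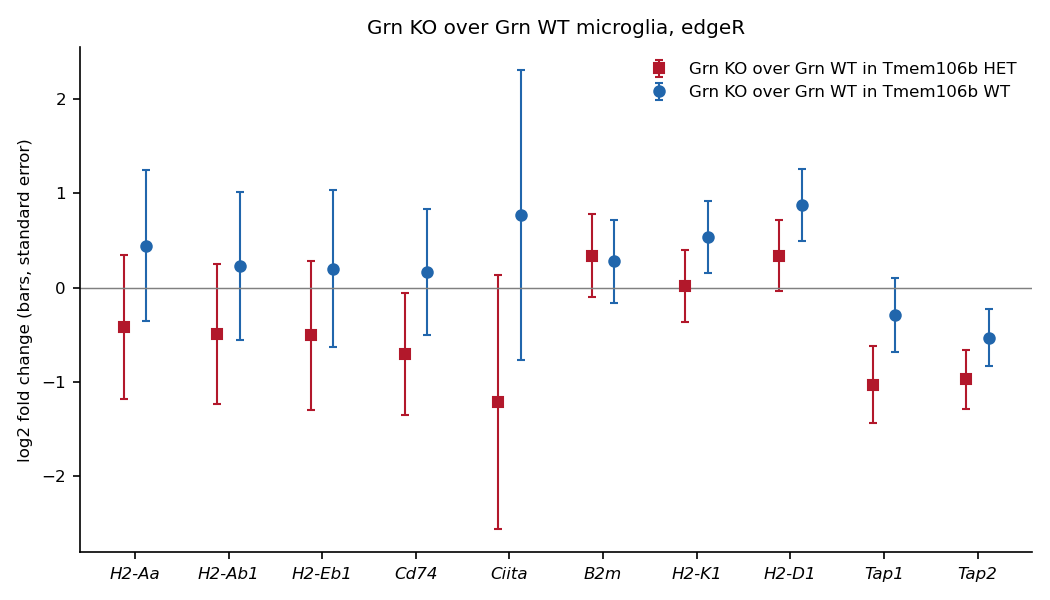
Log2 fold change (vertical axis) of Grn KO over Grn WT for the 10 MHC genes in Tmem106b HET (red squares) and Tmem106b WT (blue circles) microglia, from edgeR with sex and dissection as covariates. Bars are standard errors. H2-D1 is at 0.34 in Tmem106b HET and 0.88 in Tmem106b WT, Tap2 at −0.97 and −0.53, and of the 20 values only Tap2 in Tmem106b HET passed the test.

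The class I heavy chain H2-D1 had the largest estimate of the 10 genes in Tmem106b WT mice, and its libraries lay apart. It had 3410, 2777, 3793 and 5103 CPM in Tmem106b WT Grn KO libraries, against 1993, 1356 and 2039 CPM in Tmem106b WT Grn WT libraries. All 4 Grn KO libraries lay above all 3 Grn WT libraries, as did 8.78% of the genes tested. The log2 fold change was 0.88 (SE 0.38) and did not pass by edgeR (adjusted p = 0.350). In Tmem106b HET mice H2-D1 had 4669, 2631 and 893 CPM with Grn KO, against 1655, 2257, 1155 and 1445 CPM with Grn WT. Both Entire Grn KO libraries lay above all 4 Grn WT libraries and the Hemi one below them, and the log2 fold change was 0.34 (SE 0.38, adjusted p = 0.585 by edgeR).

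Without the 2 libraries of lowest microglia marker sums, H2-D1 passed in both backgrounds by edgeR. Its log2 fold change was then 0.80 in Tmem106b HET (adjusted p = 0.0490) and 0.95 in Tmem106b WT mice (adjusted p = 0.0194). It was the only MHC gene to pass in this setting, 1 of 10 in each background. Of all genes, 6.98% passed in this setting in Tmem106b HET and 2.48% in Tmem106b WT mice. Among Entire libraries alone H2-D1 did not pass. Its log2 fold change there was 0.86 in Tmem106b HET (adjusted p = 0.0871) and 0.80 in Tmem106b WT mice (adjusted p = 0.216). Over all alternatives the adjusted p ranged from 0.0490 to 1.0 in Tmem106b HET and from 0.0194 to 0.747 in Tmem106b WT mice. The interaction estimate for H2-D1 was −0.54 (SE 0.52, adjusted p = 0.877).

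H2-K1, the other classical heavy chain, had 740, 588, 817 and 967 CPM in Tmem106b WT Grn KO libraries, against 518, 328 and 612 CPM in Tmem106b WT Grn WT libraries. The groups overlapped through the Hemi Grn KO library at 588 CPM, and the log2 fold change was 0.54 (SE 0.39, adjusted p = 0.615 by edgeR). In Tmem106b HET mice H2-K1 had 933, 624.7 and 208 CPM with Grn KO, against 468, 612, 333 and 380 CPM with Grn WT. Its log2 fold change there was 0.02 (SE 0.38, adjusted p = 0.985).
B2m, the light chain of all class I molecules, had 4113, 3022, 4546 and 5219 CPM in Tmem106b WT Grn KO libraries, against 3001, 1946 and 5042 CPM in Tmem106b WT Grn WT libraries. In Tmem106b HET mice it had 6346, 2683 and 1008 CPM with Grn KO, against 2293, 2222, 1683 and 1795 CPM with Grn WT. Its log2 fold change was 0.34 in Tmem106b HET (SE 0.44, adjusted p = 0.650) and 0.28 in Tmem106b WT mice (SE 0.44, adjusted p = 0.862), below its error in both.

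The peptide transporter genes lay on the other side. Tap2 fell in Grn KO microglia of Tmem106b HET mice and was the only MHC gene to pass by edgeR in any comparison fitted to all 26 libraries with both covariates. There 6.05% of all genes passed as lower. It had 181, 149 and 41.7 CPM in Tmem106b HET Grn KO libraries, against 208.5, 248, 125 and 192 CPM in Tmem106b HET Grn WT libraries. The groups overlapped, and the lowest value was that of Grn KO replicate 3. The log2 fold change was −0.97 (SE 0.31, adjusted p = 0.0414 by edgeR). It did not pass without Grn KO replicate 2 (adjusted p = 0.0869) or 3 (−0.59, adjusted p = 0.306), without Grn WT replicate 2 (adjusted p = 0.0833), 3 (0.0537) or 4 (0.106), nor among Entire libraries (−0.50, adjusted p = 0.164) or without the 2 libraries of lowest microglia marker sums (−0.51, adjusted p = 0.147), and passed by DESeq2 (0.0098) and limma-voom (0.0247). Over 20 alternatives its log2 fold change was −1.96 to −0.50 and its adjusted p 0.0098 to 0.386, and 13 of them left it short of the test. In both groups female libraries were all Entire and male ones all Hemi, so sex and dissection cannot be told apart within them.

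With Tmem106b WT, Tap2 had 160, 146.5, 189 and 180 CPM with Grn KO, against 246, 185 and 232 CPM with Grn WT. One Grn KO library lay above the lowest Grn WT library, which was Hemi, and the log2 fold change was −0.53 (SE 0.30, adjusted p = 0.489). The interaction estimate was −0.44 (SE 0.42, adjusted p = 0.877). Tap1 had 80.6, 57.1, 75.6 and 75.5 CPM in Tmem106b WT Grn KO, against 99.5, 63.8 and 84.3 CPM in Tmem106b WT Grn WT libraries (log2 fold change −0.29, SE 0.39, adjusted p = 0.833). Tap1 in Tmem106b HET mice had 83.2, 69.8 and 18.02 CPM with Grn KO, against 93.2, 118, 68.4 and 78.8 CPM with Grn WT. The log2 fold change of −1.03 (SE 0.41) did not pass by edgeR (adjusted p = 0.0982) and passed by DESeq2 (adjusted p = 0.0499). The Tap1 value was −0.50 among Entire libraries (adjusted p = 0.121), −0.51 without the 2 libraries of lowest microglia marker sums (adjusted p = 0.208) and −0.64 without Grn KO replicate 3 (adjusted p = 0.461), and its adjusted p was 0.0173 to 0.484 over the alternatives. Tap1 overlaps the start of Psmb9 on the other strand, which had a median of 3254 reads against 4064 for Tap1.

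Sums of cell type markers are set beside these results. They do not tell fewer cells of a type from less RNA per cell. The sum of the 10 microglia markers was 7180 to 36400 CPM in Tmem106b HET Grn KO, against 32960 to 55160 CPM in Tmem106b HET Grn WT libraries, and 7 of the 10 markers passed as lower, beside 6.05% of all genes. The sum in Tmem106b WT mice was 23650 to 35450 CPM with Grn KO, against 37780 to 56420 CPM with Grn WT, and 1 of the 10 passed as lower. Of all genes 0.576% passed there in either direction. The 12 neuron markers summed to 764 to 6757 CPM in Tmem106b HET Grn KO, against 89.4 to 1450 CPM in Tmem106b HET Grn WT libraries, and 9 of the 12 passed as higher. Of all genes 14.5% passed there in either direction. In Tmem106b WT microglia they summed to 671 to 1144 CPM with Grn KO, against 132 to 1518 CPM with Grn WT, and 0 of the 12 passed by edgeR (11 at an unadjusted p under 0.05). Over the 26 libraries Tap2 had a correlation of 0.941 with the microglia sum and of −0.834 with the neuron sum, and H2-D1 of 0.241 and −0.325. As deviations from the group means, H2-D1 had a correlation of 0.925 with the microglia sum, and over the 18 Entire libraries of −0.292. Its highest correlation with a marker sum over the 26 libraries was 0.613, with T and NK cells. The T and NK cell markers summed to 67.0 to 185.5 CPM in Tmem106b HET Grn KO, against 11.5 to 141 CPM in Tmem106b HET Grn WT libraries, and to 42.4 to 234 CPM in Tmem106b WT Grn KO, against 15.8 to 80.3 CPM in Tmem106b WT Grn WT libraries. All 11 had estimates above 0 in Tmem106b WT (median log2 fold change 1.955, 1 at an unadjusted p under 0.05), and 0 passed by edgeR. The part of cell makeup in the Tap2 and H2-D1 values was not tested.

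Ratios of counts within a library do not depend on library scaling, and those of H2-D1 to the transporter genes were higher in all Grn KO libraries. They were chosen after the values were seen and are given with no test. The ratio of H2-D1 to Tap2 counts was 25.8, 17.6 and 21.4 in Tmem106b HET Grn KO libraries, against 7.94, 9.09, 9.21 and 7.52 in Tmem106b HET Grn WT libraries. It was 21.3, 19.0, 20.1 and 28.4 in Tmem106b WT Grn KO libraries, against 8.11, 7.33 and 8.79 in Tmem106b WT Grn WT libraries. Over all genotypes the 7 Grn KO libraries lay at 17.6 to 28.4, and the 19 Grn HET and Grn WT libraries at 6.67 to 14.4, with no overlap. How many other gene pairs set the Grn KO libraries apart in this way was not counted. Of the 2 libraries of lowest microglia marker sums, Tmem106b HET Grn KO replicate 3 had 21.4 and Tmem106b KO Grn WT replicate 2 had 6.67. The part of cell makeup in these ratios was not tested. The ratio of H2-D1 to H2-K1 was 4.21 to 5.28 in Grn KO libraries and 3.04 to 4.14 in the others, and that of H2-D1 to Tap1 was 37.7 to 67.6 against 16.3 to 36.1. For H2-K1 over Tap2 the ranges met, with 4.01 to 5.37 in Grn KO and 1.66 to 4.72 in the other libraries. The chains of class II kept their proportions: H2-Eb1 over H2-Ab1 was 0.437 to 0.5075 in Grn KO and 0.341 to 0.574 in the other libraries.

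**Figure D5:**
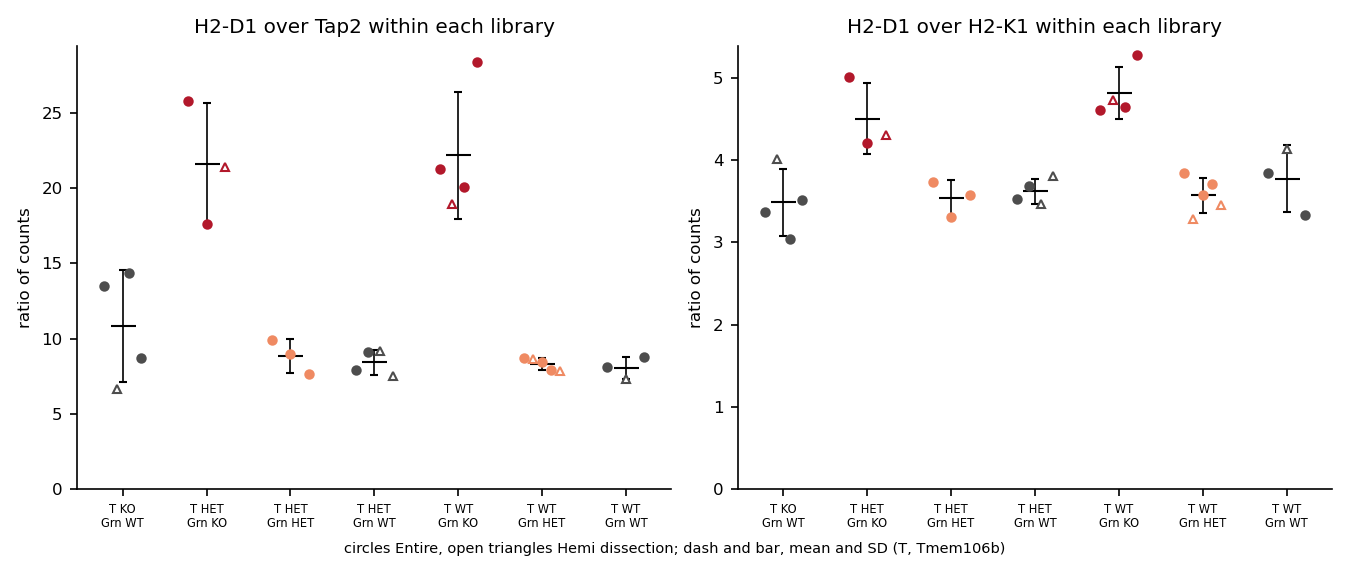
Ratio of H2-D1 to Tap2 counts (left) and of H2-D1 to H2-K1 counts (right) within each of 26 libraries by genotype (T, Tmem106b). Points are libraries, dashes and bars the mean and SD. The 7 Grn KO libraries (red) lie at 17.6 to 28.4 on the left and 4.21 to 5.28 on the right, above the highest of the other 19 (14.4 and 4.14). The ratios were chosen after the values were seen, and other gene pairs so set apart were not counted.

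Loss of 1 Grn allele left no MHC gene past the test. In Tmem106b WT mice 0 of the 10 passed by edgeR for Grn HET over Grn WT, as did 0.0% of all genes, and in Tmem106b HET mice 0 of 10, again beside 0.0% of all genes. Grn itself did not pass either, so these comparisons did not call the known change. It had 1835 ± 250 against 2980 ± 811 CPM in Tmem106b HET mice (log2 fold change −0.24, SE 1.29, adjusted p = 0.992 by edgeR). In Tmem106b WT mice it had 1414 ± 427 against 3345 ± 906 CPM (−1.59, SE 1.24). By DESeq2 and by limma-voom 0 of the 10 MHC genes passed in each. Of all genes, 1.41% passed by DESeq2 in Tmem106b HET and 1.54% in Tmem106b WT mice, and 0.0% by limma-voom. At an unadjusted p under 0.05 by edgeR there were also 0 of the 10 MHC genes in each. H2-Ab1 had a log2 fold change of −0.45 (SE 0.82, adjusted p = 0.949) in Tmem106b HET and of 0.88 (SE 0.84, adjusted p = 1.0) in Tmem106b WT mice. The Tmem106b HET value turned to 0.11 without Grn HET replicate 2, and the Tmem106b WT value to −0.36 among Entire libraries. The interaction estimate was −1.34 (SE 1.30, adjusted p = 0.998). The Tmem106b WT Grn HET libraries held H2-Ab1 values of 40.6 to 811 CPM. Choroid plexus and ependymal markers were also at their highest there, at 75.3 to 24710 CPM, against 7.08 to 14.2 CPM in Tmem106b WT Grn WT libraries; their part in the class II values was not tested. B2m lay apart in Tmem106b HET mice, at 3244, 2498 and 3278 CPM with Grn HET and 2293, 2222, 1683 and 1795 CPM with Grn WT, as did 4.2% of all genes in the same direction, and did not pass.

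Lowering Tmem106b likewise left no MHC gene past the test. For Tmem106b KO over Tmem106b WT with Grn intact 0 of 10 passed by edgeR, beside 1 gene in all (0.00468%), Tmem106b itself. H2-Ab1 had 1072, 95.5, 656 and 457 CPM in Tmem106b KO Grn WT libraries, against 368, 111 and 366 CPM in Tmem106b WT Grn WT libraries. All but 1 of the Tmem106b KO libraries, replicate 2, were above the 3 Tmem106b WT libraries, and the log2 fold change was 0.96 (SE 0.76, adjusted p = 0.640). It was 0.38 without Tmem106b KO replicate 1 and 0.57 without Tmem106b WT replicate 2. All 5 class II estimates were above 0, with a median of 0.96 beside 0.07 over all genes. H2-D1 had 3389, 347, 2042 and 1840 CPM in Tmem106b KO, against 1993, 1356 and 2039 CPM in Tmem106b WT libraries, with a log2 fold change of −0.16 (SE 0.37, adjusted p = 0.901) that turned to 0.20 without Tmem106b KO replicate 2.

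For Tmem106b HET over Tmem106b WT, 0 of 10 passed by edgeR with Grn WT, with Grn HET and with Grn KO, as did 0.0% of all genes in each. Tmem106b itself did not pass either, at −0.30 (SE 0.22) with Grn WT, −0.30 (SE 0.23) with Grn HET and −0.40 (SE 0.22) with Grn KO. H2-Ab1 had log2 fold changes of 0.49 (SE 0.78, adjusted p = 1.0) with Grn WT, −0.84 (SE 0.89, adjusted p = 0.940) with Grn HET and −0.23 (SE 0.75, adjusted p = 0.968) with Grn KO. With Grn KO all 10 MHC estimates were below 0 (median −0.44 beside −0.03 over all genes), among them Tap2 at −0.55 (SE 0.30, adjusted p = 0.918). These genes share libraries and varied together, so the 10 estimates are not independent. Among Entire libraries Tap2 was at −0.12, Tap1 at −0.02, H2-D1 at −0.25 and Ciita at 0.02. H2-Ab1 was at −0.50 and Cd74 at −0.52 there. The comparisons by Tmem106b share the groups of the comparisons by Grn and are not independent of them. With Grn HET, H2-K1 lay apart at 637, 543 and 572.5 CPM in Tmem106b HET and 506, 371, 539, 450 and 364 CPM in Tmem106b WT libraries, as did 3.15% of all genes in the same direction, and did not pass. In the comparisons by Tmem106b, 0 of 10 had an unadjusted p under 0.05 and 0 passed by DESeq2 or limma-voom. Of all genes, 2.77% passed by DESeq2 for Tmem106b KO over Tmem106b WT. For Tmem106b HET over Tmem106b WT 1.35% did with Grn WT, 2.45% with Grn HET and 0.446% with Grn KO. By limma-voom 0.0% passed in each. Both interaction tests gave 0 of 10 by edgeR, 0 at an unadjusted p under 0.05 and 0 by DESeq2 and limma-voom, beside 0.0% of all genes by edgeR. By DESeq2 1.08% of all genes passed for the Grn KO interaction and 2.02% for the Grn HET interaction, and by limma-voom 0.0% in both.

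Of 54 further genes of class I and II presentation and its control, 53 could be tested, and by edgeR with all libraries those that passed were all lower in Grn KO microglia of Tmem106b HET mice. There 9 of 53 passed, all as lower, beside 6.05% of all genes that passed as lower. By DESeq2 15 passed and by limma-voom 10, again all as lower, beside 9.77% and 7.44% of all genes. March1, a ubiquitin ligase that takes class II off the cell surface, had 46.9 ± 21.8 CPM with Grn KO and 112 ± 26.4 CPM with Grn WT (n = 3 and 4), a log2 fold change of −1.48 (SE 0.27, adjusted p = 0.00294 by edgeR). Ifngr1, a chain of the interferon gamma receptor, had 427 ± 264 CPM with Grn KO and 905 ± 250 CPM with Grn WT (−1.41, SE 0.37, adjusted p = 0.0158). Icosl, the ligand of the T cell costimulator ICOS, had 51.1 ± 34.9 CPM with Grn KO and 144 ± 31.0 CPM with Grn WT (−1.90, SE 0.50, adjusted p = 0.0163). H2-DMa, which helps load peptides onto class II, had 147.5 ± 108 CPM with Grn KO and 308 ± 75.9 CPM with Grn WT (−1.45, SE 0.42, adjusted p = 0.0267).

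By list, 4 of 9 class II accessory genes tested passed as lower (March1, H2-DMa, H2-DMb2 and the endosomal protease Lgmn), with a median log2 fold change of −1.07. Of 9 genes of interferon gamma signalling 3 did (Ifngr1, Jak1 and the transcription factor Irf8), of 6 costimulation genes 1 (Icosl), and of 12 class I accessory genes 1 (Tapbpl). None of 7 class II promoter factors and none of 10 other class I heavy chains passed by edgeR, where 1 and 2 had an unadjusted p under 0.05. Without the 2 libraries of lowest microglia marker sums 4 of 53 passed as lower (March1, Ifngr1, Icosl and Irf8), beside 2.96% of all genes, and H2-DMa had an adjusted p of 0.0576. March1 passed with each single library of these groups left out. Without Grn KO replicate 2 or 3 the adjusted p was 0.0733 and 0.113 for Ifngr1, 0.0543 and 0.127 for Icosl, and 0.104 and 0.186 for H2-DMa. Without Grn WT replicate 2 or 4 that of H2-DMa was 0.0566 and 0.0658. The adjusted p over all alternatives reached 0.152 for March1, 0.223 for Ifngr1, 0.159 for Icosl and 0.249 for H2-DMa. In Tmem106b WT mice 0 of 53 passed by edgeR for Grn KO over Grn WT (6 at an unadjusted p under 0.05). By DESeq2 1 passed and by limma-voom 0, beside 5.65% and 0.894% of all genes. The 9 class II accessory genes were all below 0 there by edgeR (median −0.55). Without the 2 libraries of lowest microglia marker sums 2 of 53 passed there, beside 2.48% of all genes. These were Cd274, the checkpoint ligand PD-L1, as higher (log2 fold change 1.33, adjusted p = 0.00439 by edgeR) and Ifngr1 as lower (−0.83, adjusted p = 0.0191), against 1.26 (adjusted p = 0.155) and −0.88 (adjusted p = 0.304) with all libraries. Cd274 was also the DESeq2 call (adjusted p = 0.0135), and it was named after its values were seen.

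The genes most like H2-Ab1 over the 26 libraries, among 10823 genes with a mean of at least 5 CPM and leaving out the 10 MHC genes, chromosome Y and genes with provisional names, were Clec12a, an inhibitory lectin receptor of myeloid cells (Spearman 0.817), Plbd1 (0.784), Ccr2, the chemokine receptor of monocytes (0.731), the interferon-induced GTPase Gbp2 (0.727) and the zinc transporter Slc30a6 (0.723). All had means of 9.08 to 25.2 CPM. Clec12a and Ccr2 are also on the border macrophage and monocyte marker lists. Those most like H2-K1, with the same genes left out, were the signalling adaptor Tyrobp (0.933), the GTPase Arf4 (0.928), the class I gene H2-M3 (0.926), Ms4a6d (0.921) and the lysosomal enzyme Hexa (0.920). Over the 18 Entire libraries the same correlations were 0.626 to 0.818 for H2-Ab1 and 0.827 to 0.880 for H2-K1.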

How the data were processed

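Poly(A) RNA of microglia was amplified with SMART-Seq v4 chemistry and made into Nextera XT libraries, per the labels' protocols. Each file deposited by the authors holds exonic counts and RPKM values per Ensembl gene, per the file headers. The submitters' processing notes name GSNAP and GRCm38. No source used here gives the counter, its annotation or its use of strand. RPKM values deposited by the authors were used only for levels between genes. Symbols and coordinates come from GENCODE M21 (52489 of 52636 genes matched).

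edgeR 4.0.16 (R 4.3.3) was fitted to the deposited counts of all 26 libraries: TMM scaling, filterByExpr on the 7 groups, group with sex and dissection, robust quasi-likelihood F-tests, two-sided, adjusted over 21371 genes. The SE is the absolute log2 fold change over the square root of F. CPM uses the TMM-scaled total. DESeq2 1.42.0, limma-voom (limma 3.58.1), other filters, scalings, covariates and subsets, and each library left out in turn were the alternatives. The fit was also run on simulated counts with known fold changes. The spread between simulated libraries was capped, so that run does not measure how the fit performs at the spread of these libraries.

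All p-values measure the spread between libraries, part of which may be technical. Libraries of a group differed by more than sampling noise (chi-square per degree of freedom at least 31.2 in 37 pairs). The libraries carry no molecular identifiers that the sources name, so counts are reads.

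The MHC genes, the lists and the comparisons were chosen with earlier results of these data known. The rule for named genes takes all 10 MHC genes, Grn and Tmem106b, up to 4 list genes of smallest p per comparison among those that passed, the top 3 of each marker list described by mean CPM, and the 5 genes most like H2-Ab1 and H2-K1. Some marker genes are not reported here by name. Other list genes named beside a count were chosen after their values were seen. Sequences are from RefSeq windows.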

Additional observations from a re-analysis of the deposited data

Results flagged for a closer look

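Within groups of 4 or 5 libraries, 48 sets of values (the CPM of each MHC gene, and the ratios of H2-D1 to Tap2 and to H2-K1) were examined for a library far from the rest. Tap1 in Tmem106b KO Grn WT replicate 2, at 11.9 CPM, stood apart from the nearest library at 92.8 CPM by 0.83 of the range of the group. Chance gives such a gap in about 1 of 20 groups. The same library had the lowest sum of microglia markers of all 26 (6855 CPM) and the highest of neuron markers (6908 CPM).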

How the results depend on the processing

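Over 36 log2 fold changes printed for single genes and their 751 alternatives, 676 kept direction and side of the threshold, 38 fell short of it, 4 newly passed it and 33 changed sign; 0 of the 33 passed. No paired analysis was possible because the labels carry no replicate numbers. No cause of these changes was tested. The count of MHC genes that passed for Grn KO over Grn WT in Tmem106b HET mice, 1 with all libraries, was 0 without a filter on low counts, without covariates, with sex or dissection alone, in Entire or female libraries and with only the groups compared, 2 by DESeq2 and in male libraries (Tap1 and Tap2), and 0 to 1 with a library left out. Without the 2 libraries of lowest microglia marker sums it stayed 1, but the gene was H2-D1 in place of Tap2, beside 6.98% of all genes. In Tmem106b WT mice it was 0, and 1 without those 2 libraries (H2-D1), beside 2.48% of all genes. In male libraries, where dissection is estimated within Tmem106b KO Grn WT alone, it was 1 for Grn HET over Grn WT in Tmem106b WT (Tap1), 2 in Tmem106b HET (H2-K1 and Tap1), 3 for Tmem106b HET over Tmem106b WT with Grn WT (H2-D1, H2-K1 and Tap1) and 4 for the Grn HET interaction (Ciita, H2-D1, H2-K1 and Tap1), each 0 with all libraries. Over all genes, male libraries gave 100, 227, 303 and 399 calls in these comparisons, in that order, each 0 with all libraries, and 1400 for Grn KO over Grn WT in Tmem106b HET. Over all genes the alternatives for Grn KO over Grn WT gave 218 to 5286 calls beside 3093 in Tmem106b HET, and 1 (without Tmem106b WT Grn WT replicate 2) to 1204 beside 123 in Tmem106b WT mice.

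Changes of sign for Grn KO over Grn WT in Tmem106b WT were as follows. In male libraries H2-Ab1 was −0.23, H2-Eb1 −0.21, Cd74 −0.065 and Ciita −1.61; in Entire libraries H2-Eb1 was −0.070 and Ciita −0.17; with only the groups compared Cd74 was −0.026; Ciita was −0.53 by limma-voom, −0.47 without covariates and −0.77 with sex alone. With a library left out, H2-Ab1 ranged from −0.28 to 0.40, H2-Eb1 from −0.41 to 0.46 and Cd74 from −0.17 to 0.35. In Tmem106b HET, male libraries gave −0.82 for B2m, −0.81 for H2-K1 and −0.57 for H2-D1, and with a library left out B2m ranged from −0.20 to 0.77 and H2-K1 from −0.22 to 0.33. H2-Ab1 was −0.36 for Grn HET over Grn WT in Tmem106b WT and 0.15 for Tmem106b HET over Tmem106b WT with Grn HET in Entire libraries, and 2.12 for Tmem106b HET over Tmem106b WT with Grn KO in male libraries. With a library left out it ranged from −0.83 to 0.11 for Grn HET over Grn WT in Tmem106b HET, from −0.038 to 0.72 for Tmem106b HET over Tmem106b WT with Grn WT and from −0.42 to 0.11 with Grn KO. H2-D1 for Tmem106b KO over Tmem106b WT was 0.084 without covariates, 0.13 in Entire and 0.61 in female libraries, 0.24 without the 2 libraries named, and −0.51 to 0.20 with a library left out. The interaction of Grn KO and Tmem106b was 0.14 for H2-Ab1 in male libraries, and 0.059 for H2-D1 and 0.030 for Tap2 in Entire libraries.

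No result changed sign with RLE scaling. The depth, at 37.6 M counts or more per library, limits only Ciita among the MHC genes, whose highest count was 458.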
